A study of Mus musculus with 17 samples.

Results

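Ankrd55, Met and Mmp19 are described here across splenic type 1 and type 2 conventional dendritic cells (cDC1s and cDC2s) that had met living or dying tumor cells. The 3 genes, of 31091 in the count table, were selected on these data for the largest interactions between cell type and medium among well-measured genes, so the differences that make up the interaction are given as a description, without a test. They come from bulk sequencing of polyadenylated RNA in 17 samples of cells sorted after 6 h of culture. The cells were CD11c+ cells of spleens from 8-week-old female C57BL/6JRj mice, at least 2 pooled, in which subcutaneous tumors of B16-FLT3L melanoma cells had expanded the cDCs. The loading protocol adds GM-CSF for survival, and each culture received medium of TC-1 mouse lung epithelial tumor cells treated with cumate, the inducer of the transgenes. After culture, cDC1s were sorted as XCR1+ CD8α+ SIRPα- and cDC2s as SIRPα+ CD11b+ XCR1-. In the WT groups the medium came from live TC-1 WT cells. In the BimS groups the medium carried debris of TC-1-iBimS cells, which die by apoptosis when cumate switches on the pro-apoptotic protein BimS, and in the RIPK3 groups debris of TC-1-iRIPK3 cells, which die by necroptosis through a self-assembling RIPK3. Both inducible lines are clones, so a difference between media can also be one between clones. There were 3 samples in each group except cDC2s with RIPK3 medium, which had 2. The labels do not say which samples came from separate mice, so the p-values measure the spread between these samples.

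The 3 genes have different roles. Ankrd55 encodes an ankyrin repeat protein found together with the IFT-B complex, which carries cargo into cilia, and in humans the gene lies beside IL6ST in a region linked to autoimmune disease. Met encodes the receptor tyrosine kinase for hepatocyte growth factor, which drives migration and survival of epithelial cells and is also known for its part in the movement of skin dendritic cells. Mmp19 encodes a secreted matrix metalloproteinase that cleaves components of basement membranes. In the mouse genome GRCm39, Ankrd55 (ENSMUSG00000049985) lies on the plus strand at chr13:112424985-112520536, Met (ENSMUSG00000009376) on the plus strand at chr6:17463749-17573979 and Mmp19 (ENSMUSG00000025355) on the plus strand at chr10:128626773-128636695. All values below are reads over the whole gene, not over single exons or transcripts.

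Ankrd55 was more than 4 times as high with either kind of debris as with WT medium in cDC1s and was low in all cDC2s. In CPM, read counts scaled to the library size after TMM normalization, the cDC1 samples had 3.49, 3.61 and 3.19 with WT medium, 17.5, 19.4 and 17.1 with BimS medium, and 17.0, 20.6 and 19.0 with RIPK3 medium. Every cDC1 sample with debris lay above every cDC1 sample with WT medium, and the ranges of BimS and RIPK3 overlapped. The cDC2 samples had 1.59, 1.78 and 1.94 CPM with WT medium, 2.19, 2.24 and 3.28 with BimS medium, and 1.55 and 1.99 with RIPK3 medium. In cDC2s the 3 BimS samples lay above the others by less than 2 CPM, and the RIPK3 samples overlapped those with WT medium. These cDC2 values rest on 24 to 55 reads per sample, against 70 to 416 in cDC1s. The means were 3.43 ± 0.217 (SD, n = 3), 18 ± 1.27 (SD, n = 3) and 18.9 ± 1.77 (SD, n = 3) CPM in cDC1s with WT, BimS and RIPK3 medium. In cDC2s they were 1.77 ± 0.176 (SD, n = 3), 2.57 ± 0.617 (SD, n = 3) and 1.77 ± 0.311 (SD, n = 2) CPM. As a description, the log2 fold change over WT was 2.39 (SE 0.116) with BimS and 2.46 (SE 0.116) with RIPK3 in cDC1s, and 0.53 (SE 0.236) and 0.00 (SE 0.290) in cDC2s. In samples with the same replicate number, the ratio to WT lay between 5.01 and 5.38 for BimS and between 4.89 and 5.95 for RIPK3 in cDC1s. In cDC2s the ratio lay between 1.26 and 1.69 for BimS and between 0.976 and 1.12 for RIPK3. Bulk RNA cannot tell a higher level in every cell from a larger share of cells that express the gene.

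**Figure D1:**
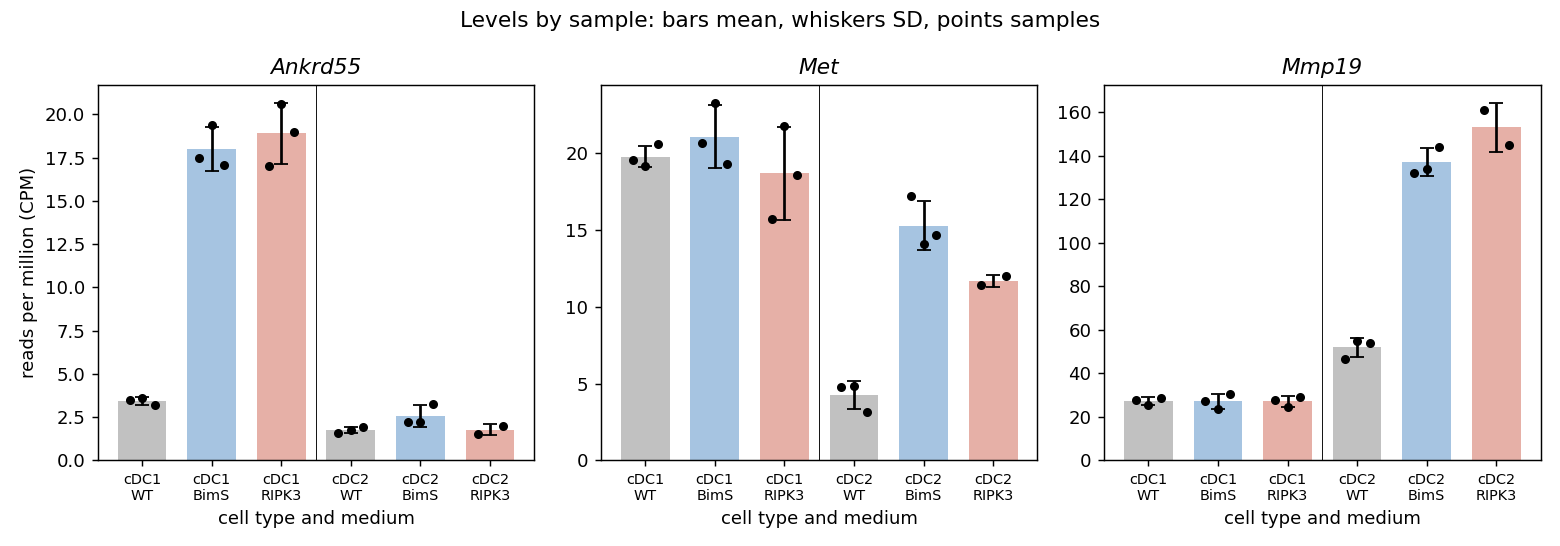
Levels of Ankrd55, Met and Mmp19 in CPM (linear axis from 0, a separate scale for each gene) in the 6 groups of cell type and medium. Bars are group means, whiskers the SD and points single samples. Ankrd55 reaches 18 and 18.9 CPM in cDC1s with debris and stays at or under 3.28 CPM in cDC2s, while the media groups of Met and Mmp19 separate in cDC2s and overlap in cDC1s.

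Met had overlapping levels with all media in cDC1s, and in cDC2s it was low with WT medium and higher with debris. The RefSeq sequence around its start (GRCm38.p6, chr6:17463707-17464006, plus strand), 250 bases before to 50 bases after, is shown because Met is the member matched in the sequence table used here. Capitals mark matches to the letters of an AP-1 motif and of an E-box.
Met: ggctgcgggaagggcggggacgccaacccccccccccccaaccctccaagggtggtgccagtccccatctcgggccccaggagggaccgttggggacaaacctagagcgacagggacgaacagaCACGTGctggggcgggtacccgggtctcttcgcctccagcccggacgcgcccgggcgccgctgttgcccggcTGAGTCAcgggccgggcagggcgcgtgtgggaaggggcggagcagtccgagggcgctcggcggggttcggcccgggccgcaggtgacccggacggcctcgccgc
Of the 9 motifs searched on both strands, this window holds an AP-1 match (TGANTCA) starting 54 bases before the start, which 7.79% of 32544 promoters of the same length hold. It also holds an antioxidant response element match (TGACNNNGC, 12.4% of promoters) at 56 bases before, which overlaps the AP-1 match, an E-box (CACGTG, 7.17%) at 126 bases before, and 3 GC boxes (GGGCGG, 35.9%) at 239, 117 and 20 bases before. The letters of a CRE (TGACGTCA, 1.80% of promoters), of an interferon response motif (GAAANNGAA, 8.53%) and of an NF-kB motif (8.49%) are not in this window. Neither are those of a PU.1 motif (GAGGAA), which 28.1% of promoters hold. A TATA box (TATAAA), held by 13.6%, is not in it either. A match describes the letters and not a bound site.

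The cDC1 samples had 19.6, 19.2 and 20.6 CPM of Met with WT medium, 20.7, 23.3 and 19.3 with BimS medium, and 15.7, 21.8 and 18.6 with RIPK3 medium. All 3 ranges overlapped. The cDC2 samples had 4.77, 4.82 and 3.18 CPM with WT medium, 17.2, 14.1 and 14.7 with BimS medium, and 11.4 and 12.0 with RIPK3 medium. In cDC2s the 3 media did not overlap, with BimS highest, RIPK3 in between and WT lowest. The means in cDC1s were 19.8 ± 0.697 (SD, n = 3), 21.1 ± 2.03 (SD, n = 3) and 18.7 ± 3.03 (SD, n = 3) CPM with WT, BimS and RIPK3 medium, on 311 to 499 reads per sample. In cDC2s they were 4.26 ± 0.931 (SD, n = 3), 15.3 ± 1.61 (SD, n = 3) and 11.7 ± 0.400 (SD, n = 2) CPM, on 59 to 282 reads. As a description, the log2 fold change over WT was 1.84 (SE 0.154) with BimS and 1.45 (SE 0.172) with RIPK3 in cDC2s, and 0.09 (SE 0.0942) and -0.08 (SE 0.0960) in cDC1s. Between samples with the same number, BimS was 2.93 to 4.61 times WT in cDC2s and 0.940 to 1.21 times WT in cDC1s. The mean of cDC1s was 4.65 times that of cDC2s with WT medium, and 1.38 and 1.60 times with BimS and RIPK3 medium, so the gap between the cell types was smaller with debris.

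Mmp19 had nearly equal means with all media in cDC1s, and in cDC2s it was higher throughout and higher still with debris. The cDC1 samples had 27.9, 25.3 and 28.5 CPM with WT medium, 27.1, 23.8 and 30.7 with BimS medium, and 27.9, 24.4 and 29.2 with RIPK3 medium. The means of the cDC1 groups lay between 27.2 and 27.3 CPM. The cDC2 samples had 46.7, 55.0 and 53.9 CPM with WT medium, 132, 134 and 144 with BimS medium, and 161 and 145 with RIPK3 medium. The cDC2 groups did not overlap each other or any cDC1 sample, although the lowest RIPK3 sample lay just above the highest BimS sample. The means in cDC2s were 51.9 ± 4.45 (SD, n = 3), 137 ± 6.46 (SD, n = 3) and 153 ± 11.3 (SD, n = 2) CPM with WT, BimS and RIPK3 medium. As a description, the log2 fold change over WT was 1.40 (SE 0.0878) with BimS and 1.56 (SE 0.0952) with RIPK3 in cDC2s, and 0.00 (SE 0.0843) and -0.01 (SE 0.0848) in cDC1s. Mmp19 was the best measured of the 3, with 487 to 2639 reads per sample. The mean of cDC2s was 1.90 times that of cDC1s with WT medium, 5.03 times with BimS and 5.64 times with RIPK3, so the gap between the cell types was larger with debris, where that of Met was smaller.

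**Figure D2:**
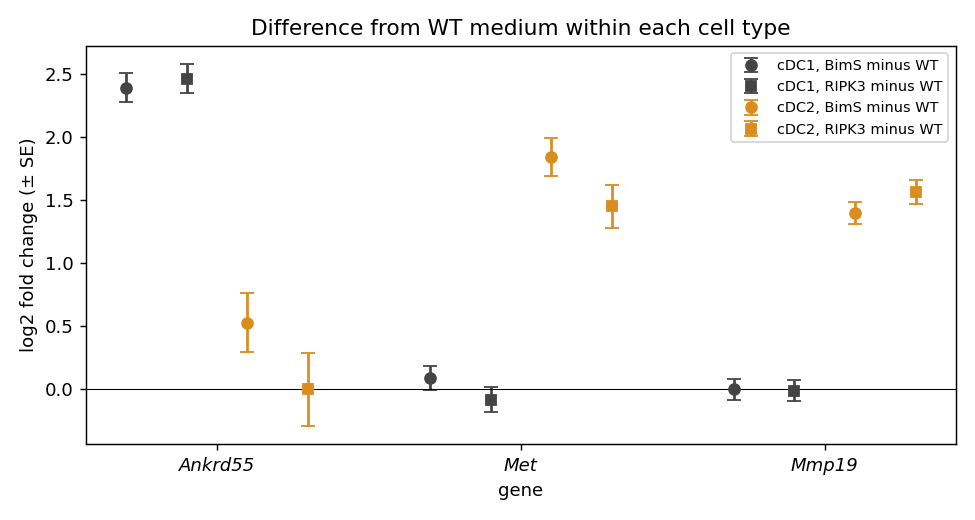
Log2 fold change of each gene from WT medium (linear axis), with its SE, in cDC1s (dark) and cDC2s (orange), for BimS (circles) and RIPK3 (squares). Ankrd55 stands at 2.39 and 2.46 in cDC1s, and Met and Mmp19 stand between 1.40 and 1.84 in cDC2s while lying within 0.09 of 0 in cDC1s.

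The interaction, the log2 fold change in cDC1s less that in cDC2s, was 1.86 (SE 0.244) for BimS and 2.45 (SE 0.273) for RIPK3 in Ankrd55. It was -1.75 (SE 0.184) and -1.54 (SE 0.199) in Met, and -1.40 (SE 0.124) and -1.57 (SE 0.130) in Mmp19. Over all genes, 0.870% of 19082 had an adjusted p under the threshold of 0.05 for the BimS interaction and 1.14% for the RIPK3 interaction. The selection gave no number for well measured. Among genes past this threshold with an average log2 CPM of at least 3, a limit set here, 146 and 191 remained, with the members first in each direction, and Ankrd55, at an average of 3.06, was just inside. Just outside were Slc16a14 at 2.98, with a BimS interaction of 0.90, and Fcgr1 at 2.94, with a RIPK3 interaction of -1.48. Some called genes at lower levels had larger interactions than the first member of the same direction. Down to an average of 1.08 they were Marchf3 (1.98 and 2.51), Ptpn14 (2.65 and 3.29), Hpgds (2.49 for BimS), Egr3 (4.54 for BimS) and Fads3 (-1.93 for RIPK3). Genes at still lower levels were not listed. The choice of the 3 therefore depends on the level limit.

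The genes next behind the members in these rankings included some with responses in both cell types and some with a response in 1. Sgk1, a serum- and glucocorticoid-induced kinase, had a BimS interaction of -1.24, with mean levels of 106 CPM with WT and 174 with BimS medium in cDC1s and 23.2 and 90.5 in cDC2s. Fbxo31, an F-box protein, had -0.96 for BimS, with 9.52 and 8.21 CPM in cDC1s and 23.4 and 39.1 in cDC2s. Dnah2, an axonemal dynein heavy chain, and Cdcp1, a membrane glycoprotein, had 1.58 and 1.53 for BimS, and Cdcp1 had 2.22 for RIPK3. Both were far lower in cDC1s, at 0.681 and 0.349 CPM with WT medium against 20.8 and 14.4 in cDC2s. Pla2g7, a secreted phospholipase, had 1.57 for RIPK3, with means of 10.2 and 96.4 CPM in cDC1s with WT and RIPK3 medium and 26.1 and 83.7 in cDC2s. Hopx and Irf8 had -1.43 and -1.30 for RIPK3. The cDC1 transcription factor Irf8 stood at 309 CPM in cDC1s with WT medium and 176 with RIPK3 medium, against 20.8 and 29.1 in cDC2s. Some of these calls were lost when 1 of the 17 samples was left out, for BimS that of Dnah2 in 2 fits and that of Cdcp1 in 10, and for RIPK3 that of Pla2g7 in 6 and that of Hopx in 5.

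Averaged over the 3 media, the difference between cDC1s and cDC2s holds the debris values that chose the genes, and Ankrd55 met the level limit through cDC1s, so it is given as a description. Ankrd55 was higher in cDC1s by 2.39 on the log2 scale (SE 0.0983) and Met by 1.12 (SE 0.0771), and Mmp19 was lower in cDC1s, with a difference of -1.92 (SE 0.0525). With WT medium alone, cDC1s had 1.94 times the mean CPM of cDC2s for Ankrd55, without overlap, and with BimS and RIPK3 medium 7.00 and 10.6 times. Apoptotic and necroptotic debris, which the selection did not set against each other, were compared by a test in the average of both cell types. The test draws on the same debris samples that chose the genes and brought Ankrd55 past the level limit. Its p-values are therefore not free of the selection. RIPK3 less BimS was -0.23 (SE 0.127, edgeR adjusted p = 0.379) for Ankrd55, -0.28 (SE 0.0917, edgeR adjusted p = 0.0856) for Met and 0.08 (SE 0.0647, edgeR adjusted p = 0.568) for Mmp19. The value of Ankrd55 joins 0.07 in cDC1s with -0.53 in cDC2s, where it had 24 to 55 reads, and it was -0.12 without cDC2 BimS replicate 3 and -0.14 without cDC2 RIPK3 replicate 1. So 0 of 3 passed the threshold, against 4.40% of all genes. Met alone had an unadjusted p under 0.05, at 0.00523, and DESeq2 also called 0. With the replicate number as a block, Met was lower with RIPK3 than with BimS, at -0.29 (edgeR adjusted p = 0.0219), where 9.91% of all genes were called, and the lower level was seen in 3 of 3 cDC1 and 2 of 2 cDC2 pairs. Averaged over both cell types, the debris response of Ankrd55 was 1.46 with BimS and 1.24 with RIPK3, that of Met 0.97 and 0.69, and that of Mmp19 0.70 and 0.78. These averages rest on the differences that chose the genes and are given without a p.

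The order of the 6 groups was different for each gene. Ankrd55 ran from cDC1s with RIPK3 and BimS, whose ranges overlapped, to cDC1s with WT, whose range touched that of cDC2s with BimS, and last to cDC2s with RIPK3 and WT, whose ranges overlapped. For Met the 3 cDC1 groups overlapped at the top and reached into cDC2s with BimS, below which cDC2s with RIPK3 and then WT stood apart. For Mmp19 the cDC2 groups with RIPK3, BimS and WT came first, each apart from the next, and the 3 cDC1 groups overlapped. Per kilobase of annotated exon, which allows levels of different genes to be set side by side, Mmp19 had 7.70 CPM per kb in cDC1s with WT medium and 43.3 in cDC2s with RIPK3 medium, above 80.1% and 95.5% of tested genes. Met ranged from 0.551 CPM per kb in cDC2s with WT medium, above 44.7% of tested genes, to 2.73 in cDC1s with BimS medium, above 65.2%. Ankrd55 ranged from 0.247 in cDC2s with WT medium, above 34.6%, to 2.63 in cDC1s with RIPK3 medium, above 64.8%. Across the 17 samples the log2 levels of Ankrd55 and Met had a Pearson r of 0.617, those of Ankrd55 and Mmp19 -0.684 and those of Met and Mmp19 -0.311. These are descriptions, since the samples share their groups.

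The genes whose log2 CPM followed each member most closely were sought among 7965 genes at the same level limit. Over 17 samples Ankrd55 was most like Rnf115, a ubiquitin ligase (r = 0.973), Arf2, Cds2, Tlnrd1 and Tomm5 (r = 0.968). All 5 were higher with debris in cDC1s by smaller factors than Ankrd55. Tomm5, a subunit of the mitochondrial import pore, had 17, 28 and 30.0 CPM in cDC1s with WT, BimS and RIPK3 medium and 13.6 to 14.1 in cDC2s. Over the 6 group means the closest were Tomm5 (r = 0.991), Cds2, Slc30a1, Zfp276 and Trmt13. Of these Slc30a1, a zinc exporter, had 7.48, 23.4 and 18.8 CPM in cDC1s and 3.89, 6.22 and 4.91 in cDC2s.

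Met was most like Pacsin2 over 17 samples (r = 0.934), a membrane-bending protein that had 200 to 206 CPM in cDC1s and 106, 150 and 144 in cDC2s with WT, BimS and RIPK3 medium. Csf2rb, the shared chain of the GM-CSF receptor, followed (r = 0.928), with 2659 to 2937 CPM in cDC1s and 1778, 2250 and 2210 in cDC2s, and then Sgk1, Sh3pxd2b and Ppp1r10 (r = 0.907). Over the group means the closest were Kdm6a (r = 0.975), Elf4, Nom1, Actr3 and Mia3. Mmp19 was most like Eif5a2, a translation factor, over both samples (r = 0.979) and group means (r = 0.998). Eif5a2 had 7.23 to 7.97 CPM in cDC1s and 12.5, 23.4 and 25.9 in cDC2s. Next over samples were Fbxo31, Homer3 and Kif1c (r = 0.966), and over group means Lrrc58, Braf, Tcirg1 and Lsm14a (r = 0.992). All these correlations are across samples that differ mainly between the cell types, and they carry no test.

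Metalloproteinases of the matrix cleave collagens and other matrix proteins and are held in check by the inhibitors Timp1 to Timp4 and Reck. Of 27 such genes other than Mmp19, 23 were in the table and 7 reached 1 CPM in any group. In cDC2s 2 of 16 tested genes rose with BimS and 3 of 16 with RIPK3, against 3.80% and 3.93% of all genes, and with the replicate block 3 and 4 were called, where the block called 21.3% and 21.4% of all genes. Mmp12, the macrophage elastase, had 12.2, 18.1 and 17.5 CPM in cDC2s with WT medium, 32.9, 42.7 and 45.7 with BimS medium and 26.3 and 36.6 with RIPK3 medium. Both debris groups lay above WT, by 1.34 (SE 0.179, edgeR adjusted p = 0.000655) and 0.97 (SE 0.198, edgeR adjusted p = 0.0108) on the log2 scale. In cDC1s Mmp12 stood between 2.98 and 6.46 CPM in all samples. Mmp13, a collagenase, rose from a mean of 0.475 to 1.70 and 1.55 CPM in cDC2s, a level of at most 40 reads. The inhibitor Timp1 rose in cDC2s with RIPK3, from 1.69, 1.43 and 2.27 to 4.14 and 4.28 CPM (1.21, SE 0.248, edgeR adjusted p = 0.00315), and with the replicate block its change with BimS was called as well (0.58, edgeR adjusted p = 0.042). The rises of Mmp12, Mmp13 and Timp1 with RIPK3 lost their calls when RIPK3 replicate 2 was left out (log2 values 0.72, 1.21 and 1.19), and that of Mmp12 also without WT replicate 3 (1.04).

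In cDC1s 1 of 14 tested genes was called in each comparison and fell, against 5.89% of all genes that fell with BimS and 8.19% with RIPK3, and with the replicate block 2 were called in each, where the block called 17.9% and 21.0% of all genes. Mmp25, a membrane-anchored protease known from leukocytes, was the most abundant of the family and had 149, 161 and 135 CPM with WT medium and 73.0, 88.0 and 65.9 with RIPK3 medium in cDC1s (-0.97, SE 0.169, edgeR adjusted p = 0.00903). In cDC2s its mean was 269 CPM with WT and 215 with RIPK3 medium, a difference that with all samples was called only with the replicate block (-0.42, edgeR adjusted p = 3.62e-15). Its change in cDC1s with BimS was called with the block (-0.54, edgeR adjusted p = 1.66e-20) and by DESeq2, and that of Mmp14 with RIPK3 was called with the block (-0.85, edgeR adjusted p = 0.0401). Mmp14, a membrane type activator of other metalloproteinases, fell in cDC1s with BimS from a mean of 1.38 to 0.715 CPM, by a call that DESeq2 did not make and that was lost with each of the 6 WT and BimS samples left out in turn (log2 values from -1.05 to -0.84). The median log2 fold change of the list was 0.24 with BimS and 0.65 with RIPK3 in cDC2s and 0.24 and 0.12 in cDC1s, against -0.02 to 0.00 over all genes. No interaction of the 16 genes other than Mmp19 was called by edgeR, against 0.870% and 1.14% of all genes for BimS and RIPK3. An unadjusted p under 0.05 was seen in 5 and 4. DESeq2 called 0 and 1 (Mmp25), and 261 and 305 over all genes. The fit with a replicate block called 3 (Mmp14, Mmp12 and Mmp25) and 2 (Mmp12 and Mmp25), against 2.32% and 2.35% of all genes. Between cell types 8 of 16 differed, against 60.1% of all genes. Mmp12, Mmp13, Mmp14, Mmp25 and Timp1 were among 7 that were higher in cDC2s, and Mmp28, at a mean of at most 0.809 CPM, was higher in cDC1s (3.35, SE 0.539, edgeR adjusted p = 3.88e-06). Timp2 and Timp3 stayed under 1 CPM in every sample, and Timp4 had 1 read in 1 sample.

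**Figure D3:**
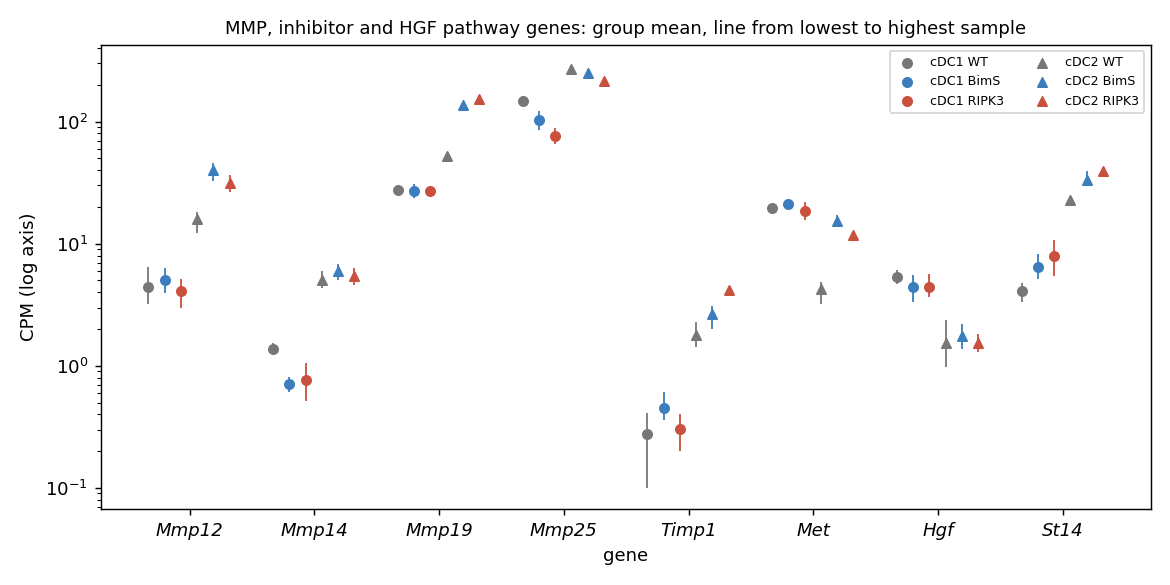
Mean CPM (log axis) of Mmp19 and Met beside metalloproteinases, the inhibitor Timp1 and genes of the HGF pathway, in cDC1s (circles) and cDC2s (triangles) with WT (grey), BimS (blue) and RIPK3 medium (red); lines run from the lowest to the highest sample. Mmp12 shares with Mmp19 the step from WT to debris in cDC2s, and the means of Hgf lie between 4.40 and 5.33 CPM in cDC1s and between 1.55 and 1.77 CPM in cDC2s.

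The MET pathway holds the ligand HGF, proteases that activate it, their inhibitors, adaptors such as GAB1 that carry the signal from the receptor, and phosphatases and ubiquitin ligases that end it. All 33 genes listed beside Met were in the table and 26 reached 1 CPM in any group. Hgf itself had 6.08, 5.24 and 4.67 CPM in cDC1s with WT medium and 2.36, 1.32 and 0.971 in cDC2s, and was higher in cDC1s over all media by 1.53 (SE 0.157, edgeR adjusted p = 2.17e-09). Its change with debris was called in neither cell type, with log2 values from -0.27 to 0.19. Mst1r, the other receptor of the MET family, stood at 0.298 CPM or less in every sample. In cDC2s 2 of 32 genes rose with each kind of debris, against 3.80% and 3.93% of all genes, and with BimS 1 fell, against 3.21%. With the replicate block 10 were called with BimS and 11 with RIPK3, against 21.3% and 21.4% of all genes in that fit. With 1 sample left out, the 3 called with BimS were 1 to 2 without WT replicate 2 or 3 or any BimS sample, and the 2 called with RIPK3 became 4 without WT replicate 3 or BimS replicate 1 and 3 without RIPK3 replicate 1. The 2 that rose were Gab1, the adaptor of MET, and St14, the protease matriptase that activates HGF. Gab1 had 3.59, 3.27 and 2.86 CPM with WT medium in cDC2s, 5.23, 4.68 and 6.08 with BimS medium and 6.60 and 5.80 with RIPK3 medium. Its log2 fold change was 0.71 (SE 0.173, edgeR adjusted p = 0.0139) and 0.92 (SE 0.189, edgeR adjusted p = 0.00329). The calls were lost without WT replicate 2 (0.72) or BimS replicate 3 (0.61), and without RIPK3 replicate 1 (0.83). St14 rose from a mean of 22.8 to 33.5 and 39.4 CPM in cDC2s (0.55 and 0.78, edgeR adjusted p = 0.00294 and 0.000226). In cDC1s Gab1 had at most 0.305 CPM in any sample, and St14 had means of 4.12, 6.47 and 7.95 CPM. The changes of St14 in cDC1s were not called by edgeR without the block, but were called with the replicate block (0.65 and 0.94, edgeR adjusted p = 7.41e-05 and 2.03e-09) and by DESeq2 (adjusted p = 0.0222 and 0.000176).

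In cDC1s, where Met held its level, 4 of 32 pathway genes rose and 2 fell with BimS, against 7.31% of all genes that rose and 5.89% that fell. With RIPK3 5 rose and 2 fell, against 8.34% and 8.19%, and with the replicate block 9 and 10 genes were called, against 17.9% and 21.0% of all genes. The 2 of 32 that fell are near or below the share over all genes. The 4 that rose with BimS were Ptpn1, Plau, Ptprj and Etv5, and they became 2, near the share over all genes, without WT replicate 1 or BimS replicate 2, where Ptprj (0.15 in both) and Etv5 (0.44 and 0.51) lost their calls. The phosphatase Ptpn1, which acts on receptor tyrosine kinases, had 293 to 296 CPM with WT, 444 to 463 with BimS and 421 to 432 with RIPK3 medium, without overlap with WT (0.62 and 0.54, edgeR adjusted p = 2.48e-13 and 6.12e-12). In cDC2s it had 308 to 355, 329 to 378 and 310 to 349 CPM, which overlapped, and a change of 0.11 with BimS was called there only with the block (edgeR adjusted p = 0.0408). It was the 1 gene of 32 with a called interaction, against 0.870% and 1.14% of all genes, 0.51 (SE 0.0931, edgeR adjusted p = 0.00293) for BimS and 0.56 (SE 0.0992, edgeR adjusted p = 0.00157) for RIPK3. With the replicate block 2 were called for BimS (Ptpn1 and Plau) and 1 for RIPK3 (Ptpn1), against 2.32% and 2.35% of all genes. The block per cell type called 4 (Gab1, Spint2, Ptpn1 and Plau) and 3 (Ptpn2, Grb2 and Ptpn1), where it called 957 and 964 of 19082 genes. With limma on log2(count + 1), which does not scale for library size, the interactions of Ptpn1 were 0.55 and 0.63. They lost their calls there (limma adjusted p = 0.172 and 0.0691). The fit of limma on log2 CPM kept them (0.51 and 0.56, limma adjusted p = 0.00344 and 0.00171). The adhesion receptor Cd44, a partner of MET, fell in cDC1s from a mean of 139 to 105 and 92.5 CPM (-0.41 and -0.59, edgeR adjusted p = 3.66e-06 and 2.27e-09). The ubiquitin ligase Cblb fell from 179 to 126 and 118 CPM (-0.50 and -0.61, edgeR adjusted p = 2.41e-09 and 2.3e-11). In cDC2s edgeR without the replicate block called neither (DESeq2 called Cblb with RIPK3, adjusted p = 0.00976), and with the block both were called lower, Cd44 by -0.45 and -0.40 (edgeR adjusted p = 1.04e-09 and 7.78e-06) and Cblb by -0.31 and -0.67 (edgeR adjusted p = 3.56e-07 and 3.92e-21). Spint1, an inhibitor of HGF-activating proteases, rose with RIPK3 by 0.35 (edgeR adjusted p = 4.9e-06), and Spint2 fell in cDC2s with BimS by 0.54 (edgeR adjusted p = 0.0281). The Spint2 call was lost without WT replicate 2 or 3 or BimS replicate 1 or 2 of the cDC2s. The median log2 fold change of the pathway was 0.04 and 0.00 in cDC1s and 0.07 and 0.06 in cDC2s.

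IFT-B proteins assemble into trains that move along the cilium. Of 18 such genes besides Ankrd55, which is not a core subunit, 15 were in the table. In cDC1s 5 of 15 fell and 1 rose with BimS, and 2 fell and 1 rose with RIPK3, and with the replicate block 8 and 4 were called, against 17.9% and 21.0% of all genes in that fit. Without the block, 5.89% of all genes fell and 7.31% rose with BimS in cDC1s, and 8.19% fell and 8.34% rose with RIPK3. In cDC2s 3 of 15 fell with BimS and 1 with RIPK3, against 3.21% and 3.28% of all genes. With the replicate block 5 and 6 were called in cDC2s, against 21.3% and 21.4% of all genes. Ift57 fell with BimS in both cell types, from 14.7 to 10.6 CPM in cDC1s (-0.48, edgeR adjusted p = 0.000651) and from 32.4 to 24.2 CPM in cDC2s (-0.42, edgeR adjusted p = 0.0132), the latter lost without cDC2 BimS replicate 1 (-0.34). In cDC2s with RIPK3 it fell by 0.54 (edgeR adjusted p = 0.00521), a call lost without RIPK3 replicate 2. The 5 that fell in cDC1s with BimS became 2 or 3 with any 1 of the 6 WT and BimS samples left out, since Ift74 and Traf3ip1 lost their calls without each of them and Ift27 without WT replicate 1 or 3 or BimS replicate 2 or 3. The 2 that fell with RIPK3 there became 1 without WT replicate 1 or 3 or RIPK3 replicate 1 or 2, where Ift27 lost its call. In cDC2s the 3 that fell with BimS became 1 without BimS replicate 1, and the 1 with RIPK3 became 2 without WT replicate 2, 4 without WT replicate 3 and 0 without RIPK3 replicate 2. Ift22 fell with BimS in both, by 0.39 and 0.67 on the log2 scale (edgeR adjusted p = 0.0013 and 0.00126). Ift172 rose in cDC1s with both kinds of debris, by 0.30 and 0.35 (edgeR adjusted p = 0.0141 and 0.00248), the former lost without WT replicate 2 or BimS replicate 2. The median log2 fold change of the list lay between -0.22 and -0.13 in the 4 comparisons, opposite in sign to Ankrd55 in cDC1s. By edgeR, DESeq2 and the fit with a replicate block over all samples, the interactions called were 0 of 15 for both kinds of debris. By edgeR 0 and 1 had an unadjusted p under 0.05. Over all genes edgeR called 0.870% and 1.14%, the block 2.32% and 2.35%, and DESeq2 261 and 305 genes. So 0 of 15 is near the share over all genes. With the block fitted per cell type, 0 and 1 (Ift57) were called, where that fit called 957 and 964 of 19082 genes.

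The IL-6 family signals through gp130, the product of Il6st, and ends in STAT proteins and their SOCS inhibitors. In the mouse Il6st also lies close to Ankrd55 on chromosome 13, with its start at 112600604. Il6st had 318, 298 and 308 CPM in cDC1s with WT medium, 360, 372 and 349 with BimS medium, and 377, 357 and 302 with RIPK3 medium. Its rise in cDC1s was 0.23 with BimS (SE 0.0596, edgeR adjusted p = 0.00989, lost without WT replicate 2) and 0.17 with RIPK3, which was called only with the replicate block (0.16, edgeR adjusted p = 0.00298). In cDC2s it had means of 141, 173 and 149 CPM, and with all samples its change with BimS was also called only with the block (0.30, edgeR adjusted p = 1.03e-09). Averaged over the media it was higher in cDC1s (1.14, SE 0.0516, edgeR adjusted p = 2.92e-17). Of 27 genes of the family in the table, 5 of 23 tested were called in cDC1s with BimS (3 rose, 2 fell) and 6 with RIPK3 (4 rose, 2 fell), and with the replicate block 7 and 10, against 17.9% and 21.0% of all genes in that fit. Without the block, 7.31% of all genes rose and 5.89% fell with BimS there, and 8.34% rose and 8.19% fell with RIPK3. In cDC2s 2 of 24 were called with BimS (1 rose, 1 fell), against 3.80% of all genes that rose and 3.21% that fell, and 3 rose with RIPK3, against 3.93%. The 2 called with BimS, Clcf1 and Socs3, are near the share over all genes, and 0 were called without BimS replicate 1 and 1 (Osm) without WT replicate 2. The call of Socs3 there was lost in 6 of 8 fits with 1 sample left out. In cDC1s the 5 called with BimS became 3 without WT replicate 2, where Il6st (0.20) and Il6ra (-0.20) lost their calls, and the call of Il6ra was lost in 5 of 9 fits. With the block 9 and 9 were called, against 21.3% and 21.4% of all genes.

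Interactions were called for 2 of 23 genes with BimS (Il6 and Socs3) and 1 with RIPK3 (Il6), against 0.870% and 1.14% of all genes. Il6 had 57.0, 64.8 and 60.3 CPM in cDC1s with WT medium, 43.5, 46.1 and 39.6 with BimS medium and 56.8, 65.8 and 61.3 with RIPK3 medium. In cDC2s it had 39.9, 37.3 and 34.3 CPM with WT medium, 43.3, 41.5 and 45.6 with BimS medium and 67.6 and 56.0 with RIPK3 medium. It fell in cDC1s with BimS (-0.49, SE 0.0666, edgeR adjusted p = 5.81e-07) and rose in cDC2s with RIPK3 (0.72, SE 0.106, edgeR adjusted p = 0.000106). Its interaction was -0.72 for both, with edgeR adjusted p = 0.000826 and 0.00116. The inhibitor Socs3 had an interaction of 0.42 for BimS (SE 0.0961, edgeR adjusted p = 0.0254), with 90.1 and 98.2 CPM in cDC1s and 280 and 228 CPM in cDC2s. That call was lost without cDC1 WT replicate 1 or 3, cDC1 BimS replicate 1 or 2, cDC2 WT replicate 2 or cDC2 BimS replicate 1 or 3. With the replicate block 3 genes of the family were called for each interaction, Il6 and Socs3 among them, against 2.32% and 2.35% of all genes, and limma on log2 CPM kept the calls of Il6 (adjusted p = 0.00173 and 0.0029) and Socs3 (adjusted p = 0.0303). These calls were lost with limma on log2(count + 1), which does not scale for library size. The values there were -0.69 and -0.65 for Il6 (limma adjusted p = 0.051 and 0.095) and 0.46 for Socs3 (limma adjusted p = 0.429). Clcf1, a cytokine of the family, rose in all 4 comparisons by 0.33 to 0.69 on the log2 scale, and Osm, oncostatin M, rose with RIPK3 in cDC1s (0.70) and cDC2s (0.63). In cDC2s with BimS the call of Clcf1 was lost without WT replicate 2 (0.38) or BimS replicate 1 (0.38).

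**Figure D4:**
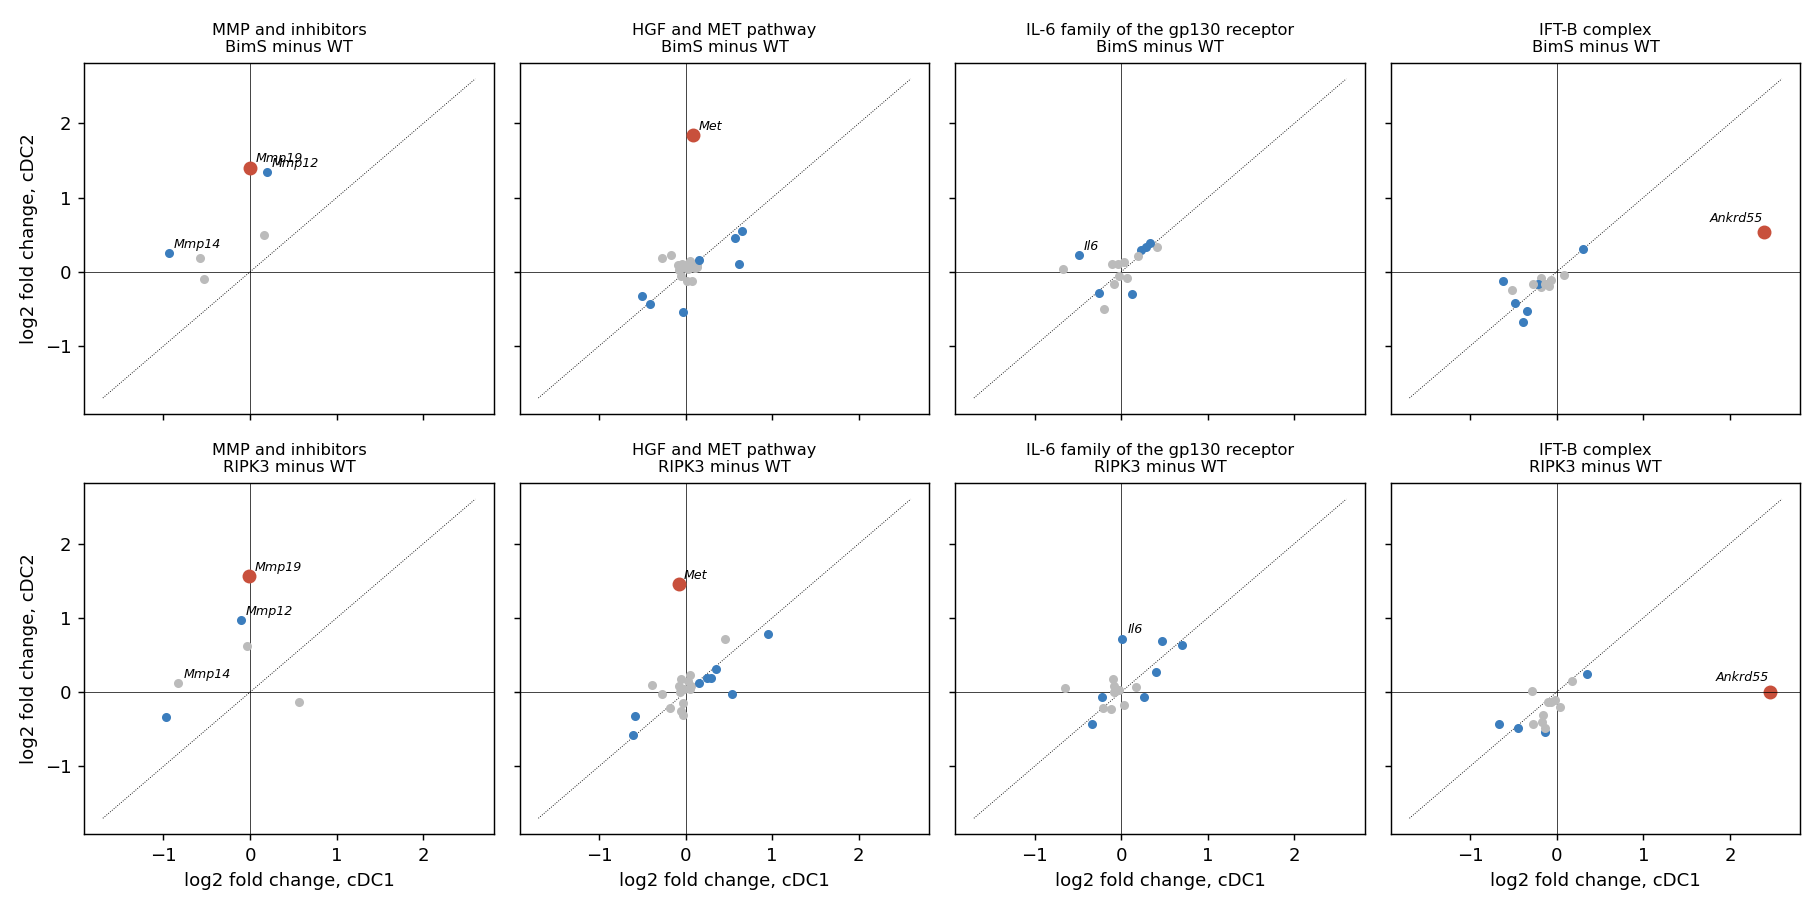
Log2 fold change over WT medium in cDC2s (vertical) against cDC1s (horizontal), both linear, for BimS (upper row) and RIPK3 (lower row), in the 4 gene lists. Red points are Mmp19, Met and Ankrd55, blue points genes called in either cell type and grey points the rest, among genes that reach 1 CPM in both cell types, with the names of the members, Mmp12, Mmp14 and Il6; the dotted line marks equal change. The members lie farthest from this line, which is the difference they were chosen by.

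Of the 3 genes on either side of each member, 0 of 18 had a called interaction, which is near the 0.870% and 1.14% over all genes. Around Met, Tes, Cav2 and Cav1 lie before and Capza2, St7 and Gm43533 after, of which Capza2 had means of 247 to 275 CPM in all 6 groups. St7 rose with debris in both cell types, by 0.40 and 0.47 in cDC1s and 0.53 and 0.47 in cDC2s (edgeR adjusted p from 0.00087 to 0.0064). Tmem198b overlaps Mmp19 on the opposite strand (chr10:128612169-128641381), and the sources used here do not say whether strand was used in counting. Tmem198b had means of 22.6, 22.4 and 27.5 CPM in cDC1s and 65.8, 67.1 and 72.8 in cDC2s. Its change in cDC2s was 0.03 with BimS and 0.14 with RIPK3 on the log2 scale, which were not called. In cDC1s it was called higher with RIPK3 than with WT (0.29, edgeR adjusted p = 0.0097) and with BimS (0.30, edgeR adjusted p = 0.0265). The 6 tested neighbors of Ankrd55 had means under 1 CPM in every group. Gm48837 and Gm55074, which overlap Ankrd55, had at most 0.455 and 0.115 CPM in a sample.

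The sorted cells carried the markers of their labels, and the totals were 16095159 to 21645289 reads on genes per sample. The 9 cDC1 markers summed to 1412 to 1739 CPM in cDC1s and 99.0 to 132 CPM in cDC2s, and the 9 cDC2 markers to 2.68 to 4.23 and 305 to 393 CPM. Mmp12 and Mmp19 are also known from macrophages and Met from epithelial cells. The sum of 12 macrophage markers in cDC2s was 62.9 to 78.4 CPM with WT, 57.9 to 63.7 with BimS and 43.9 to 51.1 with RIPK3 medium, with 6 to 8 of the 12 under 1 CPM. The ranges with WT and BimS overlapped, and Timd4 had the highest mean of the 12 in every group, at 26.7 to 29.7, 22.2 to 23.4 and 16.0 to 16.1 CPM in cDC2s. In cDC1s the sum of the 12 was 66.7 to 70.2, 39.6 to 48.7 and 29.1 to 32.2 CPM. Most of it was Timd4, at 54.8 to 58.6, 33.4 to 41.9 and 20.7 to 26.2 CPM. The means of Mmp19 in cDC1s were within 0.1 CPM of each other. The part of such cells in the results was not tested. The sum of 17 markers of adherent tumor cells rose with debris, from 63.7 to 72.6 CPM to 119 to 139 CPM in cDC1s and from 76.9 to 87.8 CPM to 97.5 to 128 CPM in cDC2s. Of these Lamc1 had the highest level, and without it the sum in cDC1s was 14.5 to 17.0 CPM with WT, 16.2 to 16.7 with BimS and 17.1 to 17.6 with RIPK3 medium, the last above every WT sample. In cDC2s it was 39.6 to 50.2, 30.0 to 43.1 and 29.4 to 35.9 CPM, of which Cdh1 made up means of 32.7, 25.6 and 20.4 CPM. The epithelial keratins Krt8 and Krt7 were at or below 0.155 and 0.280 CPM in every sample, with 0 reads in 8 samples each, Krt18 was at most 1.17 CPM and Epcam at most 1.44 CPM. Cald1 rose in cDC1s with RIPK3 (1.80, edgeR adjusted p = 0.0163), on at most 37 reads, and was not called in cDC2s (-1.95). Ripk3, the transgene of the iRIPK3 line, rose with RIPK3 in cDC1s (0.28, edgeR adjusted p = 0.0146) and cDC2s (0.57, edgeR adjusted p = 0.0452). Bcl2l11, the gene of BimS, was not called with BimS (0.03 and 0.17). The part of tumor cell RNA was not tested.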

How the data were processed

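The deposited counts are raw reads per gene. The authors trimmed reads (SeqPurge), aligned them to GRCm39 with STAR 2.7.10a, as the submitters' processing notes also state, and counted them with gensum. A deposited table of log2 values is a rescaled copy of these counts and was not used. Of 31239 lines, 148 without a gene identifier (0.0258% to 0.0366% of counts) were left out, and 30854 of 31091 identifiers were matched to GENCODE M39 for symbols, exon length and coordinates. The promoter sequence is from RefSeq; 1 of the 3 members, Met, was matched.

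Genes with reads in at least 50% of samples were fitted in R 4.3.3 with the quasi-likelihood test of edgeR 4.0.16 (robust, TMM, Benjamini-Hochberg over all genes, 0.05), all 17 samples for interactions and differences between cell types, the 9 cDC1 and 8 cDC2 samples separately for debris against WT. The members, gene lists and tests were chosen with earlier results of these data known. The members are left out of list counts, and their debris responses and differences between cell types carry no p, including the averages for which a test had been planned. Named are the 3 members, their neighbors, the 5 most correlated genes, the next 2 in each ranking, up to 4 called genes of each list with an average log2 CPM of 3 or more (and some lower ones, such as Mmp13, Mmp14 and Gab1, chosen after their values were seen), and Hgf, Mst1r, Timp1 to Timp4 and Il6st whatever their values. Some genes that this rule names are not reported here.

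Same-numbered samples (the labels' replicate numbers) deviated together within a cell type: 16 of 16 pairs correlated above 0.1 (median 0.355), against 4 of 32 pairs of different numbers. The pairing comes from the data, and blocked counts and values stand beside the list counts and most named genes whose calls they change. On simulated counts with 200 genes changed 2-fold, 181 were recovered in the BimS interaction, 200 in cDC1s and 196 in cDC2s, with 3.21%, 8.26% and 6.67% false calls. The simulated samples held no difference between cell types and no deviation shared by same-numbered samples. Only genes above a minimum mean read number were changed. These rates therefore need not hold for the fits of the real counts. Alternatives were DESeq2 1.42.0, RLE factors, other filters, limma 3.58.1 on log2(count + 1) and on log2 CPM (prior count 2), the replicate block, and each sample left out. Of these, limma on log2(count + 1) used raw counts that were not scaled for library size. The precision of CPM is limited by read number, with no molecular identifiers.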

Additional observations from a re-analysis of the deposited data

Results flagged for a closer look

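The debris response of 3 listed genes differed between cDC1s and cDC2s by the test of the interaction itself (edgeR, adjusted over all genes). The members are not repeated here because they were chosen by that difference. Ptpn1 had an interaction of 0.51 for BimS and 0.56 for RIPK3 on the log2 scale (edgeR adjusted p = 0.00293 and 0.00157), higher with debris in 3 of 3 cDC1 samples of each kind than in every WT sample. Il6 had -0.72 for BimS and -0.72 for RIPK3 (edgeR adjusted p = 0.000826 and 0.00116). Socs3 had 0.42 for BimS (edgeR adjusted p = 0.0254), a call that was lost in 7 of 17 fits with 1 sample left out. With limma on log2 CPM all 5 calls were kept, with adjusted p from 0.00171 to 0.0303. All 5 were lost with limma on log2(count + 1), which does not scale for library size. The values there were 0.55 and 0.63 for Ptpn1 (limma adjusted p = 0.172 and 0.0691). They were -0.69 and -0.65 for Il6 (limma adjusted p = 0.051 and 0.095) and 0.46 for Socs3 (limma adjusted p = 0.429). Groups of 3 or fewer samples were not examined for single outlying samples.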

How the results depend on the processing

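The tested difference of the members, RIPK3 less BimS averaged over cell types, stayed on its side of the threshold in 70 of 75 values under the alternatives. The other 5 belong to Met (adjusted p = 0.0856), which passed the threshold without a filter (-0.28, adjusted p = 0.0216), with the replicate block (-0.29, adjusted p = 0.0219) and with the block per cell type (-0.31, adjusted p = 0.000693), over a range of adjusted p from 0.000693 to 0.238. It passed as well without cDC2 WT replicate 3 (-0.28, adjusted p = 0.0331) and without cDC1 RIPK3 replicate 2 (-0.34, adjusted p = 0.0401), and with single samples left out it lay between -0.34 and -0.22. Of the described differences, 497 of 504 moved by less than 1 SD between replicates. The limma fit on log2(count + 1) took raw counts without scaling for library size. In that fit Ankrd55 with RIPK3 in cDC1s was 2.32. Mmp19 in cDC2s was 1.38 with RIPK3 and 0.05 for RIPK3 less BimS. The part of library size in these shifts was not tested. Leaving out single samples gave interactions of Ankrd55 from 1.76 to 2.06 for BimS, from 2.29 to 2.65 for RIPK3 and from 0.39 to 0.79 for RIPK3 less BimS, with 2.06 and 0.39 without cDC2 BimS replicate 3 and 2.65 and 0.79 without cDC2 RIPK3 replicate 2. Where cDC2 RIPK3 was left with 1 sample, that sample is assumed to vary like the others.

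The number of genes with a called interaction was 166 for BimS and 217 for RIPK3, and 443 and 449 with the replicate block, 957 and 964 with the block per cell type, 261 and 305 with DESeq2, 315 and 371 without a filter, and 67 and 109 with limma on log2(count + 1). In cDC2s, 1349 and 1387 genes were called with BimS and RIPK3, and 4103 and 4126 with the block. Of 71 calls of other named genes, 41 were kept with each sample left out and 30 lost at least once. Of 544 list counts under the alternatives 463 stayed within 1.5 times. The block changed the call of neither Ankrd55 nor Mmp19 in RIPK3 less BimS.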
